A study of Homo sapiens with 28 samples.

Results

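HEK293 cells, a line derived from human embryonic kidney, were depleted of the RNA helicase DDX17 with 3 lentiviral short hairpin RNAs (shRNAs), 1 array for each hairpin. They were set against the 1 array of the same series from cells that carried a hairpin to lacZ, a bacterial gene that human cells lack. These 4 arrays, of 28 in the whole data set, were chosen by their titles. The 9 arrays of the CLP1, DDX5 and HNRNPL knockdowns in that series, 3 hairpins for each gene, served to separate changes of the DDX17 knockdown from changes found after other hairpins too. The study asked which factors act on the length of 3′ untranslated regions of Aire-sensitive genes, and only the summed signal of each gene is described here. Every culture, the control included, was infected with virus made from the vector pLKO with the U6 promoter in front of the hairpin, was selected with 2 µg/ml puromycin and was taken for RNA on day 6. A hairpin lowers the target by a variable amount and can touch other transcripts, and the hairpins were kept for their strength, so a knockdown here is a partial loss in 1 cell line.

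DDX17 is a DEAD-box protein that unwinds RNA and remodels RNA-protein complexes. With its close paralog DDX5 it assists the DROSHA and DGCR8 complex that cuts primary microRNA transcripts, takes part in alternative splicing and transcription termination, and acts as a coregulator of transcription factors such as MYOD1, REST and the oestrogen receptor. CLP1 belongs to the cleavage and polyadenylation machinery and HNRNPL is a splicing regulator, so the 3 reference knockdowns also strike RNA-handling factors.

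Levels are log2 intensities of 1 probeset for each of 18417 genes on a Human Gene ST1.0 array, a whole-transcript array, and a difference of 1 means a doubling. Differences are given as log2 ± standard error (SE), and a gene was called where its adjusted p by limma, after Benjamini-Hochberg (BH) correction over all genes, was under 0.05. The median intensity of an array of this series ranged from 61.5 to 74.0, and how precise a value is depends on how many arrays stand behind it. The 3 DDX17 arrays differed pairwise with an SD over genes of 0.24 to 0.27, while hairpins 1 and 3 of DDX5 differed with 0.76 and stand apart from each other. The first-series lacZ array also appears in the second series of the study (SD 0.07 between the copies). It stands alone as the control here and adds nothing to the estimate of the spread, and its copy enters the fit only in the second-series lacZ mean, beside lacZ replicate 3. The labels do not say whether arrays came from separate cultures, and p-values measure the spread between these arrays only. The 6 markers of the line and embryonic kidney lay between the 19.7 and 98.1 percentiles of all genes (lowest SALL4, highest VIM). Markers of blood cells lay at 1.57 to 41.6, of neurons at 13.9 to 60.5, of fibroblasts at 2.08 to 54.5, of keratinocytes at 9.40 to 46.7, of endothelium at 12.2 to 27.2 and of hepatocytes at 2.23 to 33.3, so the ranges overlapped. In bulk RNA, fewer expressing cells and less RNA per cell cannot be told apart.

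DDX17 itself stood at 10.91 in the lacZ array and at 9.40, 9.59 and 9.75 after hairpins 1, 2 and 3. The 9 CLP1, DDX5 and HNRNPL arrays ranged from 10.24 to 11.01, so the DDX17 arrays lay below every other array without overlap. The difference was -1.33 ± 0.25 against lacZ (limma adjusted p = 0.00254), which left 39.8% of the control signal, and -1.13 ± 0.14 against the other 3 knockdowns (adjusted p = 0.000117). The first of these missed the threshold when the series was fitted alone (adjusted p = 0.0600), and the second passed under every alternative run.

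The paralog DDX5 read 10.57 with lacZ and 10.82, 10.60 and 10.74 with the DDX17 hairpins, all 3 above the control. Neither its difference to lacZ (0.16 ± 0.28, adjusted p = 0.909) nor that to the other knockdowns (0.53 ± 0.16, adjusted p = 0.128) passed the test. The latter reference holds the DDX5 knockdown arrays themselves, at 9.72, 9.60 and 9.26. DROSHA, the nuclease that cuts primary microRNAs, differed from lacZ by -0.01 ± 0.28, its partner DGCR8 by -0.24 ± 0.19, and XRN2, the exonuclease of transcription termination, by 0.50 ± 0.37, none called in either comparison. CLP1 (-0.25 ± 0.18) and HNRNPL (-0.65 ± 0.30), the targets of other hairpins, were not called either. Hairpin 1 of DDX17 read 9.07 for HNRNPL, within the 8.78 to 9.44 of the HNRNPL knockdown arrays.

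**Figure D1:**
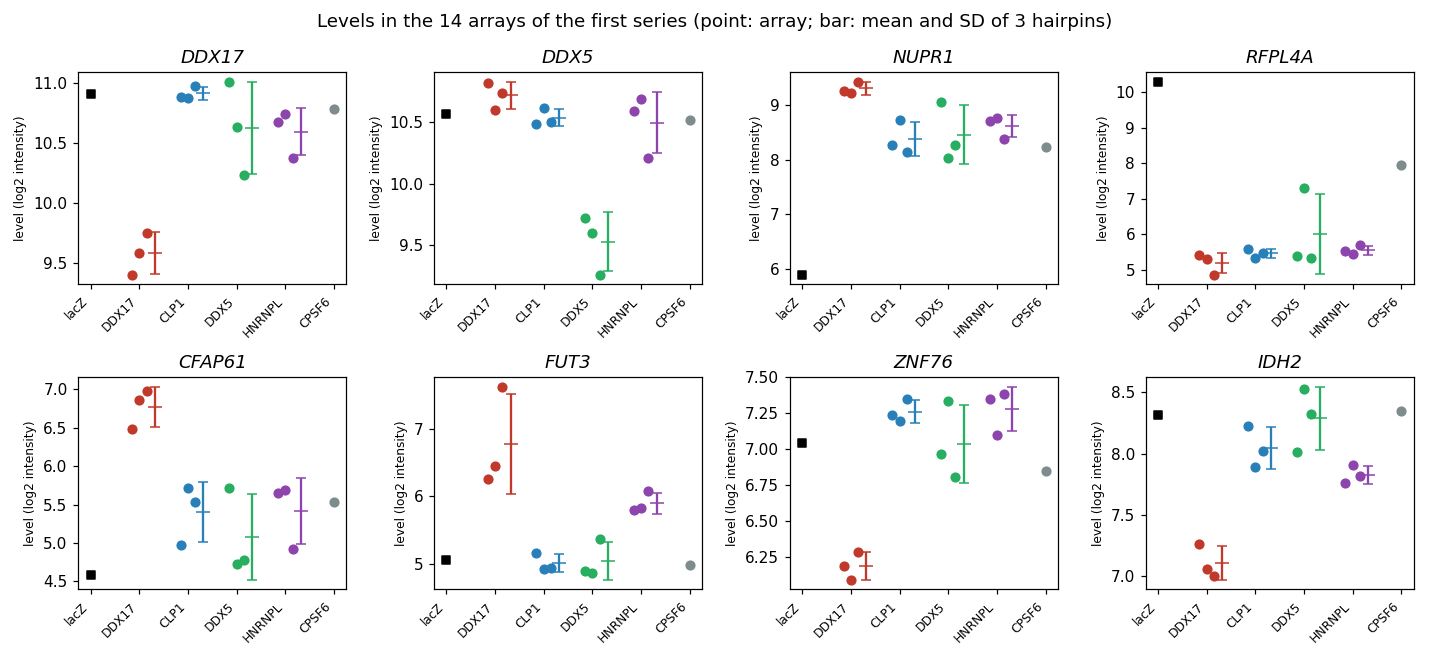
Level (log2 intensity, vertical axes, each with its own range) of 8 genes in the 14 arrays of the series, 1 point for each array, grouped by knocked-down gene, with the mean and SD of 3 hairpins beside each group. DDX17 is lowest with its own hairpins (9.40 to 9.75), NUPR1 and RFPL4A depart from lacZ in all knockdowns, and CFAP61, FUT3, ZNF76 and IDH2 depart mainly with the DDX17 hairpins.

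Against lacZ, 511 genes were called (2.77% of those tested), 224 higher (1.22%) and 287 lower (1.56%), and 289 of the 511 differed by more than 1 log2 unit. Of the 511, 412 (80.6%) were within 0.5 log2 units of the mean of the CLP1, DDX5 and HNRNPL knockdowns, where 97.9% of all genes were. In 59 (11.5%) the 3 DDX17 arrays lay beyond all 9 other arrays in the same direction, against 2.84% of all genes in either direction (1.05% above and 1.79% below). The 511 genes were called on the same DDX17 arrays, so nothing is read from that excess. With the second-series lacZ array (lacZ replicate 3) as the control, after quantile normalization over all arrays, 489 genes were called, of which 276 were among the 511. The split of calls depends on the scaling, with 43.8% higher as deposited and 60.5% higher after centring each array on its median.

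NUPR1, a small nuclear protein induced by stress, read 5.90 with lacZ and 9.26, 9.22 and 9.43 with the DDX17 hairpins, while the 9 other knockdown arrays ranged from 8.03 to 9.06. All hairpins thus lay far above lacZ, and those to DDX17 lay highest, at 3.40 ± 0.30 above lacZ (adjusted p = 1.57e-07) and 0.82 ± 0.17 above the other knockdowns (adjusted p = 0.0192). The latter call was lost in 6 of 24 alternatives, among them without any 1 of the DDX17 hairpins, and the adjusted p reached 0.194. CTH, which makes cysteine from cystathionine, read 7.48 with lacZ and 9.90, 9.78 and 9.79 with the DDX17 hairpins, above the 7.92 to 9.59 of the other knockdowns. Its rise of 2.34 ± 0.50 against lacZ was called (adjusted p = 0.00868) and its difference of 0.80 ± 0.29 to the other knockdowns was not (adjusted p = 0.234).

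FGF21, a secreted metabolic hormone of the fibroblast growth factor family, read 4.87 with lacZ and 7.05, 7.03 and 7.48 with the DDX17 hairpins, where the other knockdowns reached from 5.45 to 7.12. It was called against lacZ (2.32 ± 0.35, adjusted p = 0.000399) and against the other knockdowns (1.05 ± 0.20, adjusted p = 0.0102), and in the latter missed the threshold without hairpin 3. ATF4 and its CEBP partners bind the letters TGATGNAA. FGF21 was called in both comparisons, as was NUPR1, and a promoter stretch that holds these letters is shown for FGF21 only. It comes from RefSeq on GRCh38.p14, plus strand, chr19:48755459-48755488, with the element in capitals as its reverse complement, 54 bases before the start site.
FGF21: aaacaccaggaTTGCATCAgggaggaggag
On either strand, TGATGNAA was found in 3.67% of 27305 RefSeq promoters (250 bases before to 50 after the start), in 7 of the 36 promoters matched for the ATF4 and unfolded protein response list, and in 2 of 9 for its members called against lacZ. A match of letters is a description and not a binding site.

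The other leading rises, CFAP61 apart, sat within the range of the other knockdowns in at least 1 hairpin. TNFRSF9, a costimulatory receptor of T cells, read 5.89 with lacZ and 9.51, 9.46 and 10.02 with the DDX17 hairpins, and the other knockdowns covered 6.55 to 10.15. SH3BGR, a glutamate-rich protein that binds SH3 domains, read 6.10 with lacZ and 8.63, 9.29 and 8.68, and the others 7.71 to 8.79. INHBE, the activin βE subunit, stood at 5.64 with lacZ and at 8.15, 8.23 and 8.17, within the 6.95 to 8.31 of the others. BEX1 (X-linked, expressed in brain), ELSPBP1 (a sperm-binding protein), SLC7A3 (a transporter of cationic amino acids), ALPK2 (an atypical kinase) and SCARNA4 (a small Cajal body RNA) rose by 2.11 to 2.76. Over the 12 largest rises, the median difference was 2.53 against lacZ and 0.81 against the other knockdowns, and the DDX17 arrays lay above all 9 others for 3 of 12 (NUPR1, CTH and CFAP61). SCARNA4 lost its call in 6 of its 12 alternatives, and TNFRSF9, ELSPBP1 and ALPK2 when the series was fitted alone.

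In the genes of the largest falls the lacZ array was high, and the other knockdowns read about as low as the DDX17 knockdown. RFPL4A, a member of a RING finger family, read 10.29 with lacZ and 5.43, 5.30 and 4.87 with the DDX17 hairpins, and the 9 other knockdowns ranged from 5.33 to 7.32. It fell by 5.09 ± 0.95 (adjusted p = 0.00277), and its difference to the other knockdowns was -0.48 ± 0.55 (adjusted p = 0.846). REXO1L1P, a pseudogene with 6 probesets and near-identical copies that may share signal, read 10.70 with lacZ against 7.66, 7.14 and 7.05, with the other knockdowns at 6.67 to 7.75. ERRFI1, a feedback inhibitor of the epidermal growth factor receptor, read 10.39 with lacZ against 8.20, 7.67 and 7.93, with the others at 6.88 to 8.39. For all 12 largest falls, which also hold OR2B6 (an olfactory receptor), ZSCAN5B (a zinc finger protein), PLK2 (a polo-like kinase), KRTAP21-2 (a hair protein), CCNA1 (cyclin A1), SNAI1 (a transcriptional repressor), MUC12 (a mucin), MIR7-3HG (a microRNA host transcript) and H2BC19P (a histone pseudogene), the difference to the other knockdowns lay between -0.48 and 0.06. In none of the 12 did the DDX17 arrays lie below all 9 others. The CPSF6 array, with 1 hairpin to a cleavage factor, lay above the 3 DDX17 arrays for all 12, for example at 7.95 for RFPL4A and 6.32 for KRTAP21-2. SNAI1 lost its call in 4 of 12 alternatives, among them without hairpin 2 or hairpin 3 and with lacZ replicate 3 as the control. H2BC19P lost it with that control only. The rest of the 12 falls kept their call under every alternative that tested them.

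**Figure D2:**
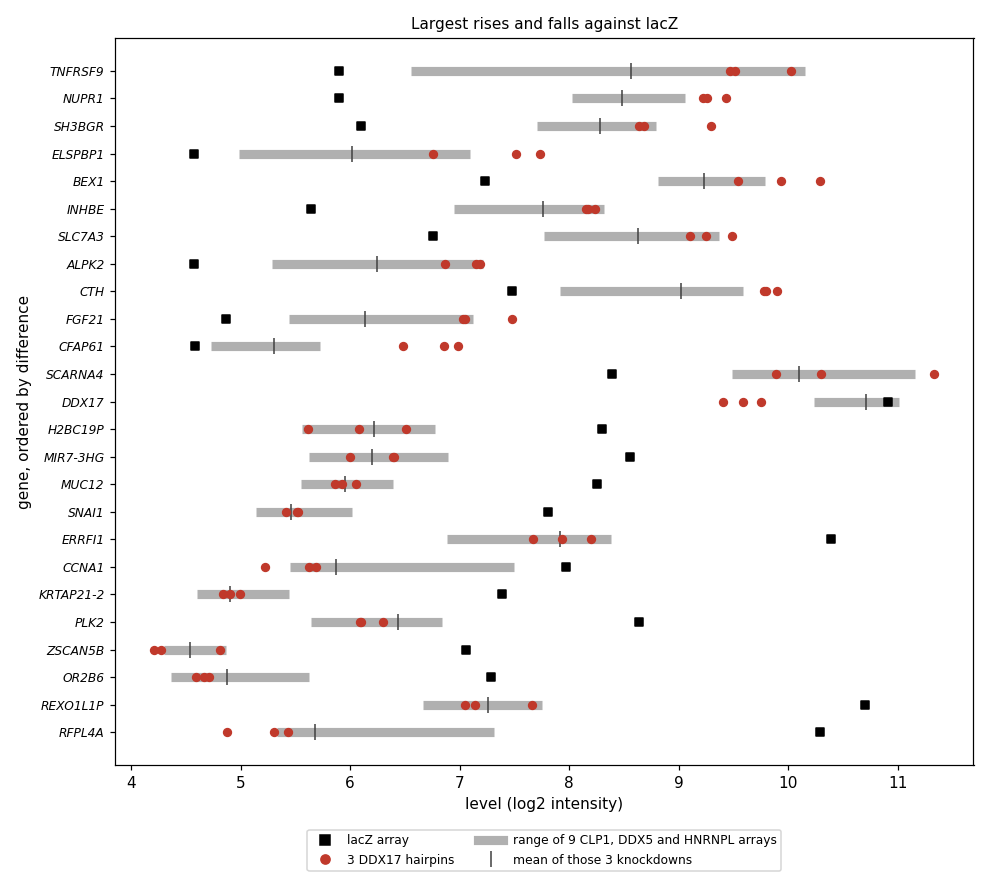
Level (log2 intensity, horizontal axis) of DDX17 and the 12 largest rises and falls against lacZ, ordered by difference, with the lacZ array as a square, the 3 DDX17 hairpins as points, and the range and mean of the 9 CLP1, DDX5 and HNRNPL arrays as a grey bar and tick. The DDX17 points of the 12 falls sit on or beside the grey bars, with differences to their means of -0.48 to 0.06, and the lacZ squares stand apart.

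Of 44 measured genes of the ATF4 and unfolded protein response, the program that adapts cells to amino acid shortage and misfolded protein, 12 rose and 0 fell against lacZ, with a median difference of 0.70 beside 0.00 over all genes. The 12 were 27.3% of the list, where 1.22% of all genes rose. Besides NUPR1, INHBE, FGF21, SLC7A3 and CTH they include XBP1, a transcription factor of the unfolded protein response (1.45 ± 0.32, adjusted p = 0.0105). The median level of the list was 7.75 in the lacZ array, 8.61 to 8.78 in the DDX17 arrays and 8.08 to 8.74 in the 9 others. Against the other knockdowns 2 rose, NUPR1 and FGF21, and the median was 0.17. All 19 aminoacyl-tRNA synthetases, which charge tRNAs with amino acids, missed the threshold against lacZ. Their median was 0.44, and 6 had an unadjusted p under 0.05. Of all 18417 genes, 2713 had an unadjusted p under 0.05 against lacZ and 2163 against the other knockdowns.

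Genes of sterol synthesis fell against lacZ in 5 of 26 (19.2% beside 1.56% of all genes), with 0 rises and a median of -0.46. Against the other knockdowns 0 of 26 fell, the median was -0.06 and 2 had an unadjusted p under 0.05. INSIG1, the regulator that retains the sterol sensor in the endoplasmic reticulum, read 9.47 with lacZ and 7.47, 7.01 and 7.66 with the DDX17 hairpins, and fell by 2.09 ± 0.37 (adjusted p = 0.00183). The other knockdowns covered 6.99 to 8.28 and held the DDX17 values. MSMO1 (-2.13 ± 0.47), IDI1 (-1.36 ± 0.30) and LSS, enzymes of the pathway, and ACLY (-1.18 ± 0.26), which supplies acetyl-CoA, were the other members called. With lacZ replicate 3 as the control MSMO1 differed by -0.75 only. The smallest differences of INSIG1, IDI1 and ACLY under any alternative were -1.88, -1.10 and -1.035. Fitted on the first series alone, 1 of 26 was called.

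Replication-dependent histone genes, whose transcripts end without a poly(A) tail, fell in 10 of 57 against lacZ (17.5% beside 1.56% of all genes), with a median of -0.36. The testis linker histone gene H1-6 read 6.14 with lacZ and 4.58, 4.59 and 4.58 (-1.56 ± 0.17, adjusted p = 3.24e-06), and H2BC17 read 7.24 against 5.34, 5.69 and 5.16 (-1.84 ± 0.26, adjusted p = 0.000171). Against the other knockdowns none was called, 11 had an unadjusted p under 0.05, and the differences of 53 of 57 were negative with a median of -0.18 (-0.10 without hairpin 3). With lacZ replicate 3 as the control, 14 of 57 fell.

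Of 57 cytosolic ribosomal protein genes 4 rose (median 0.30), among them RPL32 (0.96 ± 0.25) and RPS23 (0.94 ± 0.25). Of 68 genes of the respiratory chain and ATP synthase 4 rose (median 0.39), among them COX5B, a subunit of cytochrome c oxidase, at 7.52 with lacZ and 8.78, 9.50 and 8.77 with the DDX17 hairpins (1.50 ± 0.31, adjusted p = 0.00802). With lacZ replicate 3 as the control 1 ribosomal gene rose and 1 fell (median 0.01), and no respiratory gene was called (median 0.11). Without DDX17 hairpin 2, 0 ribosomal genes and 1 respiratory gene rose. Against the other knockdowns none of the 57 ribosomal and 68 respiratory genes was called (medians 0.16 and 0.20). Of 192 small nucleolar and Cajal body RNAs, which guide RNA modification, 3 rose against lacZ (SCARNA4, SNORA10 and SNORA3A), which is 1.56% beside 1.22% of all genes, with a median of 0.41. Without hairpin 2 none was called (median 0.17), nor with lacZ replicate 3 as the control (median -0.02). Against the other knockdowns none of these 192 RNAs was called (median 0.02). Their median level was 7.14 in the lacZ array and 7.39, 8.56 and 7.56 with DDX17 hairpins 1, 2 and 3. The level with hairpin 2 was matched by DDX5 hairpin 3 (8.61) and HNRNPL hairpin 3 (8.60). The part of this array difference in the other results was not tested.

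Growth factor response genes fell in 4 of 27 (14.8%) and rose in 1 (3.70%) against lacZ, with a median of -0.36. Of all genes 1.56% fell and 1.22% rose. The falls include ERRFI1, IER3 (-0.91 ± 0.19) and FOSB (-1.46 ± 0.35), both early-response genes, and the rise was KLF10 (1.11 ± 0.29), which TGFβ induces. Of 31 genes of G2 and M phase 1 fell, the proliferation antigen gene MKI67, at 10.76 with lacZ and 9.37, 8.87 and 8.94 with the DDX17 hairpins (-1.70 ± 0.27, adjusted p = 0.000504), while the list's median was -0.46. Of 32 DNA replication genes 2 rose, TYMS (thymidylate synthase, 1.29 ± 0.28) and GINS1 (0.80 ± 0.22). None of these genes was called against the other knockdowns, where MKI67 differed by -0.38 ± 0.15 (adjusted p = 0.296). The p53 targets held 1 rise (GDF15, a stress cytokine, 1.83 ± 0.29) and 1 fall (PLK2) of 26, with a median of 0.13. Calls of 1 or 2 genes in lists of this size are not read as results.

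Genes tied to the known roles of DDX17 were mostly uncalled, as were most genes of the array. None of its 27 listed relatives and partners was called in either comparison, nor any of 32 DEAD box helicase genes, 21 genes of microRNA processing, 23 hnRNP genes or 29 genes of cleavage, polyadenylation and termination. Between 2 and 5 genes of each list had an unadjusted p under 0.05 against lacZ, as had 2713 of all 18417 genes. Of all genes 2.77% were called against lacZ and 0.874% against the other knockdowns. In lists this small the lack of a call is not read as a result. Of 189 microRNA genes 1 fell (0.529% beside 1.56% of all genes), MIR7-3HG, a host transcript, and 0 rose, with a median of 0.06. The array reads precursor and host transcripts, not mature microRNAs. Neuronal genes repressed by REST held 1 rise (BEX1) and 2 falls of 30, both neurofilament genes. NEFH read 7.46 with lacZ and 5.44, 5.43 and 5.17 (-2.11 ± 0.27, adjusted p = 4.52e-05), and NEFL read 11.68 against 10.33, 10.23 and 10.10 (-1.46 ± 0.34, adjusted p = 0.0152). Of 28 muscle genes activated by MYOD1 1 fell (ACTN2, -1.14 ± 0.23), and of 17 oestrogen and androgen response genes 1 rose (XBP1) and 1 fell (SGK1, a kinase, -1.62 ± 0.24). Of the spliceosome and SR protein genes 2 of 46 rose, PRPF19 (1.20 ± 0.22) and SNRPE (1.06 ± 0.29). SNRPE lost its call in 5 of 12 alternatives, among them without hairpin 2 or hairpin 3, and PRPF19 in 1. Their smallest differences were 0.31 and 0.74. Since 1.22% of all genes rose and 1.56% fell against lacZ, calls of 1 or 2 genes in these lists are not read as results. Against the other knockdowns none of the 30 REST, 28 muscle, 17 hormone response or 46 spliceosome and SR protein genes was called. The medians there were 0.04, -0.02, -0.04 and 0.16.

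The Aire-sensitive genes that the study lists with proximal poly(A) sites in mouse thymic epithelium, matched by symbol, numbered 560. Of these 5 rose and 5 fell against lacZ (0.893% each), below the 1.22% and 1.56% over all genes, with a median of 0.03. RAPGEF3, an exchange factor activated by cAMP, rose by 1.08 ± 0.20, and FRZB, a secreted Wnt antagonist, fell by 1.11 ± 0.23. Against the other knockdowns 1 rose (NTS, neurotensin, 0.89 ± 0.18) and 4 fell, among them H6PD (-0.50 ± 0.10) and PAQR8 (-0.56 ± 0.12), with a median of 0.01, where 0.44% of all genes rose and 0.434% fell. NTS and H6PD lost the call in 4 of 23 alternatives each, and PAQR8 in 9 of 24. Both NTS and H6PD lost it without hairpin 2, and NTS also without hairpin 3. NTS read 7.29 in the CPSF6 array, above the 4.79, 5.19 and 5.46 of the DDX17 hairpins.

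**Figure D3:**
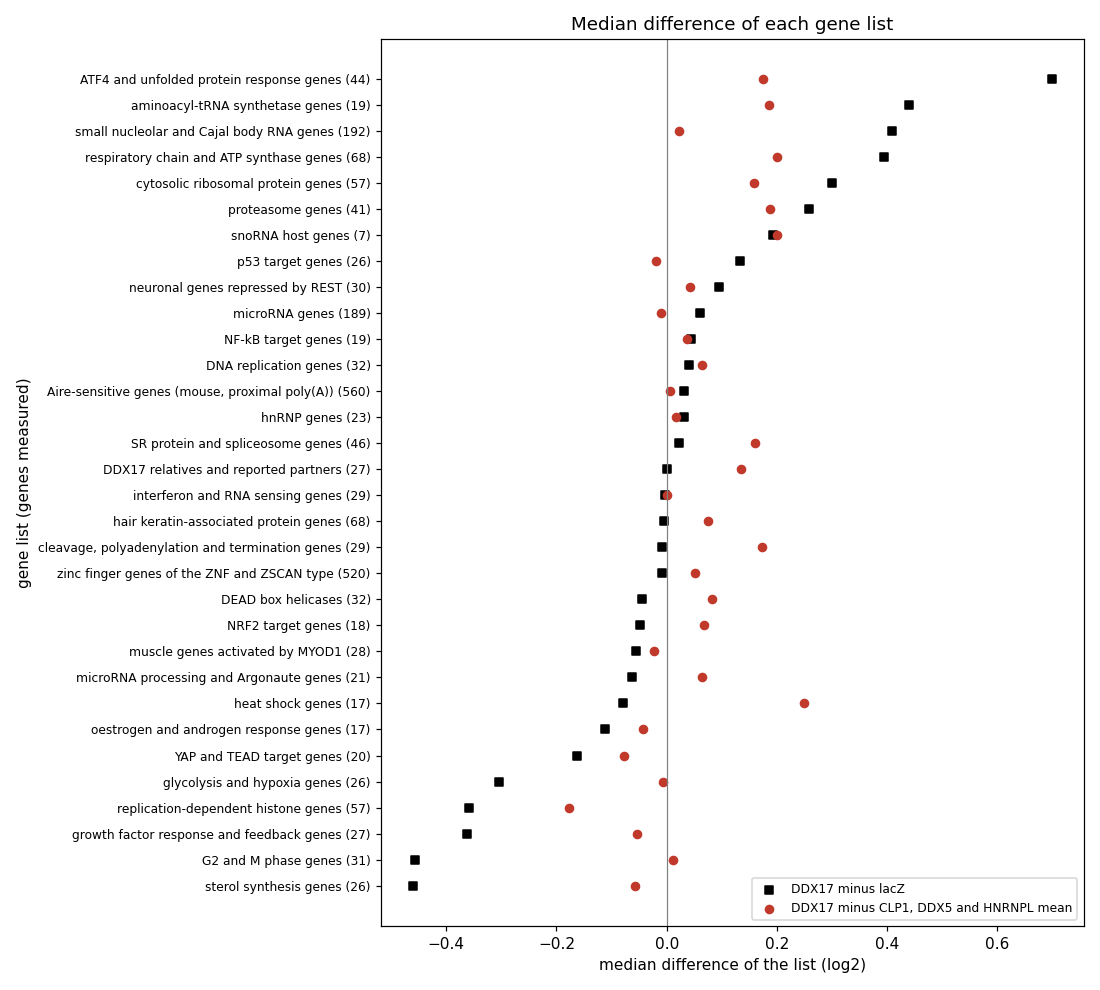
Median difference (log2, horizontal axis) of each of the 32 gene lists against lacZ (squares) and against the mean of the CLP1, DDX5 and HNRNPL knockdowns (points), with the number of genes measured. The ATF4 and unfolded protein response list has the highest median against lacZ (0.70) and the sterol list the lowest (-0.46), and against the other knockdowns they stand at 0.17 and -0.06.

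Against the mean of the CLP1, DDX5 and HNRNPL knockdowns, 161 genes were called (0.874% of those tested), 81 higher (0.44%) and 80 lower (0.434%). In 98 of them (60.9%) the DDX17 arrays lay beyond all 9 others, against 2.84% of all genes. The 161 genes were called for differing from the mean of these 9 arrays, so nothing is read from that order. The differences were smaller than against lacZ, with 18 over 1 log2 unit, 16 of them higher. Genes that rose were dim, at a median percentile of 27 among all genes in the lacZ array, and those that fell were at 60.3. Among the genes with a mean log2 level of at least 6, 100 were called, 26% of them higher. After median centring 76.9% of 147 calls were higher, and after quantile normalization 69.3% of 101, against 50.3% as deposited. In all, 56 genes were called against both references, all in the same direction, which are 11% of the calls against lacZ and 34.8% of those against the other knockdowns. Both comparisons use the same DDX17 arrays.

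CFAP61, a protein of cilia and flagella, read 4.59 with lacZ and 6.49, 6.86 and 6.99 with the DDX17 hairpins, and the 9 other arrays ranged from 4.73 to 5.72. The groups did not overlap, and CFAP61 differed by 2.19 ± 0.30 from lacZ (adjusted p = 0.000146) and by 1.48 ± 0.18 from the other knockdowns (adjusted p = 0.000117). PDGFD, a platelet-derived growth factor, read 4.77 with lacZ, 6.28, 5.96 and 6.33 with the DDX17 hairpins and 4.55 to 5.89 in the others, a difference of 1.13 ± 0.16 to the latter (adjusted p = 0.000363). HOXA2, a homeobox transcription factor, read 7.15 with lacZ, 8.19, 8.58 and 8.70 with the DDX17 hairpins and 6.44 to 7.83 in the others. Its difference of 1.19 ± 0.22 (adjusted p = 0.00543) was not called without hairpin 2 or without hairpin 3.

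For a further set of genes hairpin 3 stood well above hairpins 1 and 2. FUT3, the fucosyltransferase that makes Lewis antigens, read 5.07 with lacZ and 6.25, 6.45 and 7.62 with hairpins 1, 2 and 3, against 4.87 to 6.07 in the other knockdowns. MTUS2-AS1, an antisense transcript, read 4.98 with lacZ and 5.94, 6.42 and 7.29, against 4.82 to 5.44, and ENDOU, an endonuclease, read 4.83 with lacZ and 5.77, 5.87 and 7.08, against 4.88 to 5.65. All 3 hairpins lay above the other arrays in these genes. The differences to the other knockdowns were 1.45 ± 0.18 for FUT3 (adjusted p = 0.000117), 1.35 ± 0.18 for MTUS2-AS1 (adjusted p = 0.000150) and 1.16 ± 0.17 for ENDOU (adjusted p = 0.000470). For KRTDAP, a keratinocyte differentiation protein, hairpin 1 (7.13) fell within the range of the others (6.19 to 7.23) and hairpins 2 and 3 (8.50 and 8.15) lay above it. AMBN, an enamel matrix protein, read 6.66, 5.74 and 6.30 with the DDX17 hairpins and 6.93 in the CPSF6 array, and its call was lost with that array in the reference.

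Some of the largest falls were in genes of metabolic enzymes, grouped here after the values were seen. IDH2, the mitochondrial isocitrate dehydrogenase, read 8.31 with lacZ and 7.26, 7.06 and 7.00 with the DDX17 hairpins, below all of the 7.76 to 8.52 of the other knockdowns. It differed by -1.21 ± 0.26 from lacZ (adjusted p = 0.00981) and by -0.95 ± 0.15 from the others (adjusted p = 0.00172). PFKL, the liver type of phosphofructokinase, read 7.32 with lacZ, 6.75, 6.72 and 6.66 with the DDX17 hairpins and 7.07 to 7.96 in the others. PFKL was called against the others (-0.86 ± 0.14, adjusted p = 0.00216) and not against lacZ (-0.61 ± 0.25, adjusted p = 0.210). PHYH, which starts the breakdown of phytanic acid in peroxisomes, read 6.90 with lacZ, 6.52, 6.78 and 6.58 with the DDX17 hairpins and 6.79 to 7.88 in the others. Its difference of -0.82 ± 0.13 to the others (adjusted p = 0.00203) stood beside -0.28 ± 0.23 to lacZ (adjusted p = 0.695). GATM, the first enzyme of creatine synthesis, read 5.39, 4.81 and 5.03, within the 4.59 to 6.78 of the others. GATM lost its call in 7 of 23 alternatives, among them without hairpin 2 or hairpin 3.

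ZNF76, a zinc finger transcription factor, was the largest fall after DDX17, at 7.04 with lacZ, 6.19, 6.10 and 6.29 with the DDX17 hairpins and 6.81 to 7.38 in the others. It differed by -1.0 ± 0.12 from the other knockdowns (adjusted p = 0.000117) and by -0.85 ± 0.22 from lacZ (adjusted p = 0.0288). The further falls were TCF25 (-0.80 ± 0.14), PI4K2B, a lipid kinase (-0.79 ± 0.13), ACTN4, an actin crosslinker (-0.80 ± 0.17), ICA1 (-0.81 ± 0.18), PLXNB2, a semaphorin receptor (-0.81 ± 0.20) and SUMF2 (-0.80 ± 0.19). Of these, PLXNB2 lost its call in 14, SUMF2 in 10, ICA1 in 7 and ACTN4 in 6 of 24 alternatives. Besides DDX17, the named genes called under every alternative run were CFAP61, FUT3, MTUS2-AS1, PDGFD, ZNF808, IDH2, PHYH and ZNF76.

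**Figure D4:**
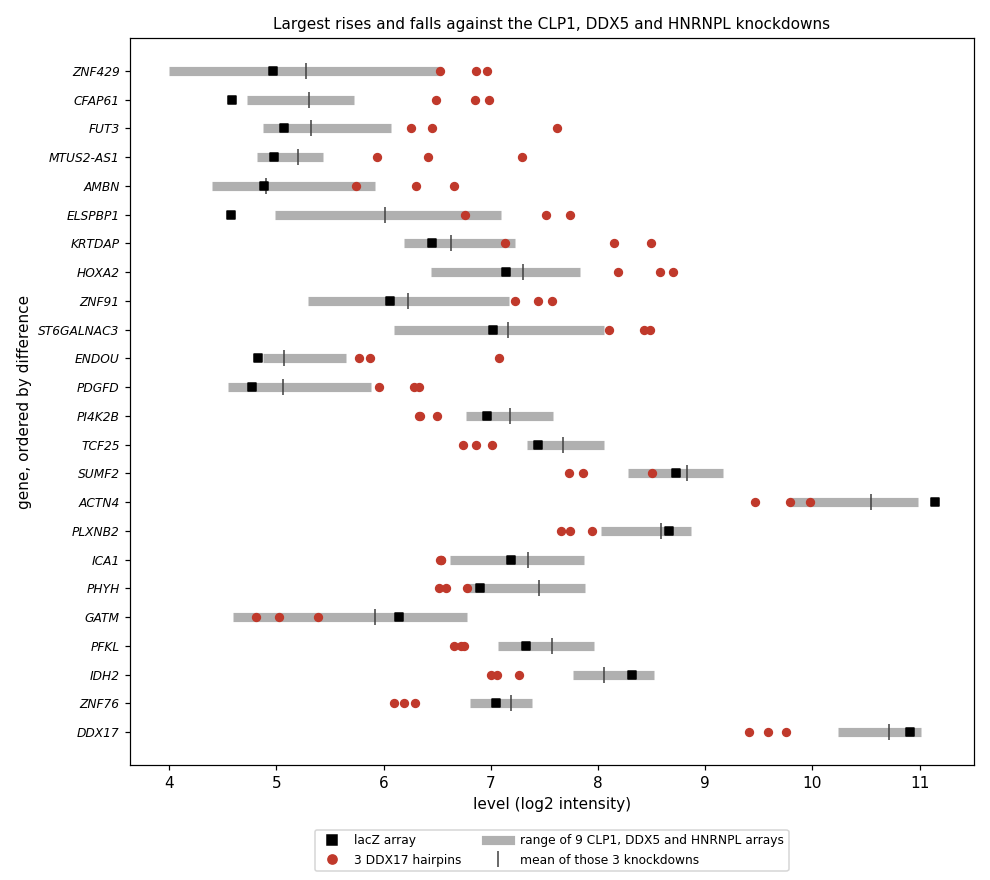
Level (log2 intensity, horizontal axis) of the 12 largest rises and 12 largest falls against the mean of the CLP1, DDX5 and HNRNPL knockdowns, with the lacZ array as a square, the 3 DDX17 hairpins as points, and the range and mean of the 9 other arrays as a grey bar and tick. The DDX17 points lie beyond the bar for 8 of the 12 rises and for 8 of the 11 falls besides DDX17. The genes were chosen by their difference to that mean, and over all genes the points lie above the bar in 1.05% and below in 1.79%. The lacZ square lies on the bar for most genes.

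Zinc finger genes of chromosome 19 made up 15 of the 81 rises. They were listed by gene name alone, so the 15 include an antisense transcript and a pseudogene. Of 520 measured genes of the ZNF and ZSCAN type, 16 rose and 1 fell (ZNF76) against the other knockdowns. On chromosome 19, 15 of 243 rose and 0 fell, with a median of 0.10, where 1 rose and 1 fell of 277 on other chromosomes (median 0.00). Of the 1065 other genes of chromosome 19, 7 rose and 6 fell. Many zinc finger genes of this type arose by tandem duplication and bind DNA to repress transposable elements. Their similar sequences may share signal on an array.

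ZNF429 read 4.96 with lacZ and 6.97, 6.52 and 6.86 with the DDX17 hairpins, and the others ranged from 4.0 to 6.54 (1.51 ± 0.26, adjusted p = 0.00269). ZNF91, a repressor of retrotransposons, read 6.06 with lacZ and 7.57, 7.44 and 7.22, above the 5.29 to 7.17 of the others (1.19 ± 0.22, adjusted p = 0.00593). ZNF492 read 5.43 with lacZ and 6.46, 6.41 and 6.57, above the 4.65 to 6.14 of the others (1.08 ± 0.18, adjusted p = 0.00269). Each of these lies in the stretch from ZNF85 to ZNF254, in which 5 of 23 zinc finger genes rose with a median of 0.48. In the stretch from ZNF610 to ZNF816, which holds ZNF528 (0.68 ± 0.13) and ZNF808, 8 of 15 rose with a median of 0.55. Both stretches were delimited after the values were seen, so their counts are descriptions.

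ZNF808 read 5.37 with lacZ and 6.21, 6.15 and 6.24 with the DDX17 hairpins, against 4.81, 4.99 and 5.05 with CLP1 hairpins, 4.92, 4.98 and 4.84 with DDX5 hairpins and 6.40, 6.27 and 5.89 with HNRNPL hairpins. The DDX17 arrays thus overlapped the HNRNPL arrays and lay above the CLP1 and DDX5 arrays. The 15 genes were called for being above the mean of these 9 arrays, so nothing is read from their order. In all 15 the DDX17 arrays lay above the CLP1 and DDX5 arrays (2.63% of all genes), and in 2 of 15 (ZNF492 and ZNF91) above the HNRNPL arrays (9.09% of all genes). With HNRNPL left out of the reference 23 of the 243 rose, with DDX5 left out 4 and with CLP1 left out 5. Without DDX17 hairpin 1, 2 or 3 there were 6, 5 and 5, and without DDX5 hairpin 1 there were 26. Against lacZ, 11 of the 243 rose and 7 fell.

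**Figure D5:**
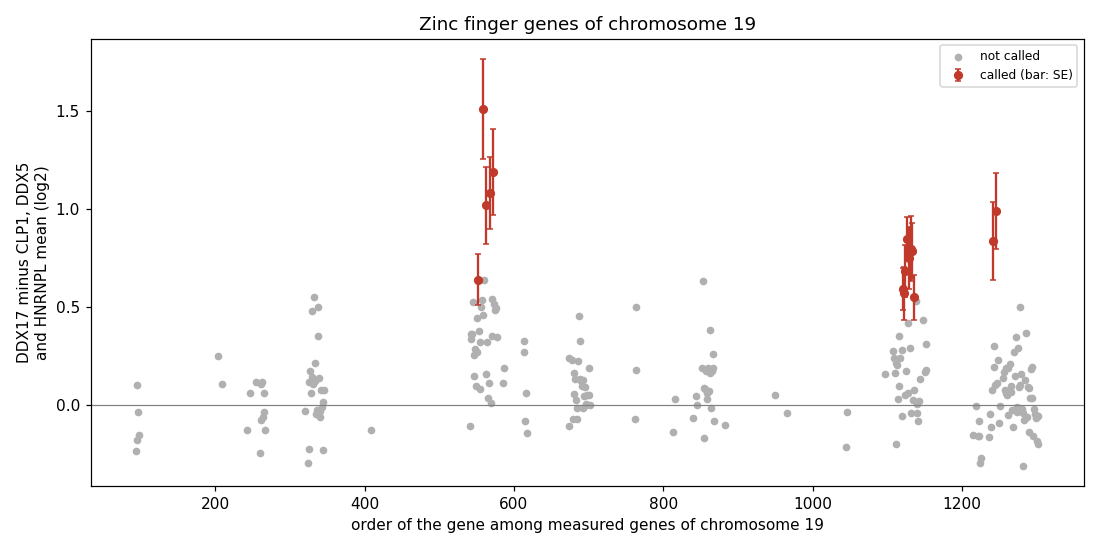
Difference of the DDX17 knockdown to the mean of the CLP1, DDX5 and HNRNPL knockdowns (log2, vertical axis) for 243 zinc finger genes, placed by their order among the measured genes of chromosome 19 (horizontal axis), with called genes in red with their SE. The 15 called genes are all higher, from 0.55 to 1.51, and 5 lie between ZNF85 and ZNF254 and 8 between ZNF610 and ZNF816.

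The hairpins differed in the number of genes they moved. Counted as more than 1 log2 unit from lacZ, hairpin 1 had 189 genes above and 168 below, hairpin 2 had 433 and 391, and hairpin 3 had 294 and 235. The level of DDX17 did not follow this order, since hairpin 1 left the least DDX17 (9.40). Without hairpin 2, 277 genes were called against lacZ and 41 against the other knockdowns, and without hairpin 3 there were 354 and 28.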

How the data were processed

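RNA of HEK293 cells was hybridised to 28 Affymetrix Human Gene ST1.0 arrays after random-primed amplification. The deposited values are probeset intensity values that the authors computed from the scans with RMA, a method that removes background, equalises the distributions of arrays and reduces the probes of a probeset to 1 value, with the 2 series of 14 arrays on different levels. They run from 4.25 to 18486 and were taken to log2 with no pseudocount or filter. Of 33252 probesets, 19460 had 1 gene symbol, 1754 several and 12038 none in the platform annotation. For 769 genes with several probesets the one with the highest mean was kept, which left 18417 genes, 18389 of them matched to RefSeq. Groups and hairpin numbers came from the labels.

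limma 3.58.1 in R 4.3.3 fitted 1 model to all 28 arrays with a mean for each knocked-down gene and for lacZ in each series (that of the second holds the copy of the first-series array), and an intensity trend in the variance (17 residual and 8 prior degrees of freedom). DDX17 was tested against lacZ of its series (3 arrays against 1, so that the spread of lacZ is assumed to be like that of the other groups) and against the average of the CLP1, DDX5 and HNRNPL means. p-values were adjusted by BH over all genes. Tested on simulated data of 18417 genes, shifts of 1 and 2 log2 units were recovered in 61% and 98% against lacZ (7 of 166 calls false). Against the other knockdowns they were recovered in 93% and 99% (12 of 204 false). The simulated noise was independent between genes and arrays. It held no copied lacZ array and no deviations shared across an array, so these rates may not hold for the real data.

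Named genes are DDX17, the 12 largest rises and falls among called genes with all 3 hairpins on that side, up to 4 called members of each of 32 lists with the smallest p, and DDX5, DROSHA, DGCR8, XRN2, CLP1 and HNRNPL. The zinc finger stretch ends ZNF85, ZNF254, ZNF610 and ZNF816 and the further called member LSS are named outside this rule, after their values were seen. The genes, lists and comparisons were chosen with earlier results of these data known. Lists are described by counts and medians. Tables and figures were made with Python 3.11.15, numpy 2.4.6, pandas 2.3.3 and matplotlib 3.10.9.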

Additional observations from a re-analysis of the deposited data

How the results depend on the processing

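Against lacZ the number of calls was 511, and it fell to 153 with the first series fitted alone, rose to 1542 with 2 lacZ arrays and no series term, and ranged from 277 to 554 when single arrays were left out, with 277 without DDX17 hairpin 2. The difference of DDX17 itself was -1.33 with the first series fitted alone, where its adjusted p of 0.0600 missed the threshold. Against the other knockdowns the number was 161, and it was 19 with the first series fitted alone, 101 with quantile normalization, 100 with dim genes left out, 56, 93 and 293 with CLP1, DDX5 or HNRNPL left out of the reference, and ranged from 28 to 558 when single arrays were left out. The arrays that moved it by over 1.5 times were DDX17 hairpins 1, 2 and 3 (92, 41 and 28) and DDX5 hairpins 1 and 3 (558 and 377). The cause was not tested. Calls within 1.5 times of the main count were found under the other alternatives, the replicate block apart. Of the named and called genes besides DDX17, 35 kept their call against lacZ under every alternative that tested them and 35 lost it under at least 1. Against the other knockdowns 8 kept it and 25 lost it. Dim genes were not tested in the fit that left them out, and some of the genes that kept their call are dim. No direction reversed.

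Hairpin numbers name different sequences, and deviations of same-numbered arrays correlated from -0.575 to 0.833, so they do not pair the arrays. CLP1 hairpin 1 correlated most with DDX5 hairpin 3. With the replicate block 26 genes were called against the other knockdowns. No paired analysis was possible because the lacZ array carries no hairpin number in the comparison with lacZ.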

Other observations

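Of 29 interferon and RNA sensing genes 1 fell against lacZ, IFIT1, which binds foreign RNA, at 5.02 with lacZ and 4.18, 4.09 and 4.34 with the DDX17 hairpins (-0.82 ± 0.18, limma adjusted p = 0.00962). Of 68 hair keratin-associated protein genes 4 fell and 0 rose against lacZ, among them KRTAP19-1 at 8.76 with lacZ and 6.77, 6.96 and 6.48 (-2.02 ± 0.30, adjusted p = 0.000245), and none was called against the other knockdowns, where 9 had an unadjusted p under 0.05. The glycolysis and hypoxia list held 1 fall of 26 in each comparison, EGLN3, an oxygen sensor, against lacZ (-0.90 ± 0.19) and PFKL against the other knockdowns. Of all genes 1.56% fell against lacZ and 0.434% against the other knockdowns. A list of this size with 1 call is not read as a result. No heat shock gene of 17 and no NRF2 target of 18 was called in either comparison. Against lacZ 4 and 5 of them had an unadjusted p under 0.05, beside 2713 of all 18417 genes. Against the other knockdowns 2163 of all genes had such a p.

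Among markers of other cell types, LUM, a matrix protein of fibroblasts, was called in both comparisons (0.62 ± 0.14 against lacZ and 0.50 ± 0.08 against the other knockdowns). It read 3.59 with lacZ, 3.91, 4.36 and 4.36 with the DDX17 hairpins and 4.38 in the CPSF6 array, at the 2.85 percentile of all genes. LUM lost its call in 4 of 11 alternatives against lacZ and in 4 of 23 against the other knockdowns, in both among them without hairpin 2 or hairpin 3. SLC17A7, a vesicular glutamate transporter of neurons, was the other marker called against lacZ, at 6.29 with lacZ and 5.27, 5.08 and 5.11 with the DDX17 hairpins (-1.14 ± 0.21, adjusted p = 0.00246). It differed from the other knockdowns by -0.14 and was not called there.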
